A study of Mus musculus with 6 samples.

Results

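The S100 genes encode small calcium-binding proteins, and 10 of them were followed in the mouse heart: S100a1, S100a4, S100a6, S100a8, S100a9, S100a10, S100a11, S100a13, S100a16 and S100b. The members were all array probes that the scanner files name by 1 of these symbols, which gave 10 probes, 1 per gene, among 41174 noncontrol probes. All 10 passed the filter on dim probes and were among the 16940 genes tested, of 28786 gene names on the array. Heart RNA came from 6 male wild-type C57BL/6 mice, 3 adrenalectomized and 3 sham-operated. Per the labels' protocols, surgery was done at 1 month of age and hearts were taken 6 months later, while another label gives the age itself as 6 months, so the age at collection is uncertain. Adrenalectomy takes out the adrenals, where corticosterone and aldosterone are made. No genetic change, steroid replacement or other agent is named in the labels.

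Most S100 proteins, though not all, are dimers whose subunits each carry a pair of calcium-binding loops called EF hands. In these, binding of calcium exposes a surface through which the dimer grips a target protein, such as an annexin, a calcium channel or a cytoskeletal protein. Some members also leave the cell and act on receptors such as RAGE (gene Ager) and Tlr4. In the heart S100a1 is best known as a protein of cardiomyocytes that acts on the ryanodine receptor and the calcium pump of the sarcoplasmic reticulum, S100a8 and S100a9 as proteins of neutrophils and monocytes, and S100b as a protein of Schwann cells, adipocytes and injured myocardium.

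Signal was read from single 60-base probes, and 4 of the probe sequences are printed because they carry the same stretch, the letters TTCNAGGAG, in capitals. In these genes that stretch belongs to the sequence that encodes the carboxy-terminal EF hand.
S100a6: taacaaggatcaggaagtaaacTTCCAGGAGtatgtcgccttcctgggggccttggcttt
S100a8: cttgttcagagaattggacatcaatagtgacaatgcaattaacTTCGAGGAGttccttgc
S100b: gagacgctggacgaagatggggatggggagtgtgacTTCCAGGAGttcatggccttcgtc
S100a5: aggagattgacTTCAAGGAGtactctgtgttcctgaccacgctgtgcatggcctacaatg
The first 3 belong to members, and S100a5 is a further gene of the family. TTCNAGGAG was chosen after the probes had been read. As printed, on the probe strand, it occurred in 65 of the 41174 probes (0.158%) and in 3 of the 10 member probes. On the mm7 assembly, whose coordinates the array design uses, the probes lie at chr3:90744440-90744499 (S100a6, plus strand), chr3:90800058-90800117 (S100a8, plus strand), chr10:75915615-75915674 (S100b, plus strand) and chr3:90741771-90741830 (S100a5, plus strand). Exon positions on mm7 were not used here.

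Of the 10 members, 9 have their probe on chromosome 3. There, 11 S100 probes, 7 of them of members, lie within 181 kb in the order S100a1, S100a13, S100a14, S100a16, S100a3, S100a4, S100a5, S100a6, S100a7a, S100a8 and S100a9. S100a11 and S100a10 lie 2805 kb farther on, 38.4 kb apart. The S100a1 and S100a13 probes read opposite strands, and the S100a13 probe spans 8007 bases of the assembly with its 60 bases, so it joins separate stretches of the assembly. RefSeq promoter windows (GRCm38.p6, 250 bases before to 50 bases after the start) matched 9 of the 10 members by symbol, and those of S100a1 and S100a13 share 204 bases. The letters ACANNNTGT, a core of the glucocorticoid response element, were searched on both strands and stood in the window of S100a8 alone among these 9 genes, and in 6.85% of all 32851 windows. The letters TATAAA, on either strand, stood in those of S100a4, S100a8 and S100a9, and in 13.6% of all windows. A match is a description and not a site.

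The labelled tissue was borne out by cardiomyocyte markers, all 10 of which were measured, with a summed log2 level between 11.8 and 12.2 on every array. The share of spots well above background ran from 57.7% to 66.8%, while 644 to 924 intensity units marked the 75th percentile. Precision is limited by the number of arrays: the median standard error (SE) of a difference on the log2 scale was 0.16 for the members and 0.14 for all genes tested. Slide 1 held the 3 sham arrays with adrenalectomized replicate 1, and slide 2 held the other adrenalectomized arrays, replicates 2 and 3. The difference within slide 1, of 1 array from the mean of 3, is given for the members. It is also given for marker genes beside the results on S100b, other than Elovl3 and Foxd3, which were dim on some arrays. Levels are log2 values after subtraction of that percentile, and are compared between arrays for the same probe, never between probes. A summed log2 level adds a list's probes on the linear scale, so its brightest probe weighs most. That probe was Fabp4 for adipocytes, Cox8b for brown adipocytes, Lyz2 for monocytes and macrophages, Pmp22 for Schwann cells and Dcn for fibroblasts.

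The comparison asked whether removal of the adrenal glands changed expression of the S100 genes in the heart. No member passed the test: after Benjamini-Hochberg adjustment limma put 0 of 10 below the threshold of 0.05, against 0.0413% of all genes (0.0295% higher, 0.0118% lower). Before adjustment 0 of 10 had a p under 0.05, against 12.3% of all genes (6.26% higher, 6% lower). For each member the values of the groups overlapped, whereas they did not overlap for 18.3% of all genes (10.4% higher, 7.95% lower). Adjusted p-values of the members ran from 0.502 to 0.975. The difference, adrenalectomized minus sham, was below 0 for 6 members and above 0 for 4, although normexp background correction turned S100a1, S100a4, S100a6 and S100a13 above 0, leaving 2 below, and quantile normalization and median centring turned S100a10 below 0, giving 7. Among all genes 43.4% were below 0. The median difference was -0.14 over the members and 0.03 over all genes tested.

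**Figure D1:**
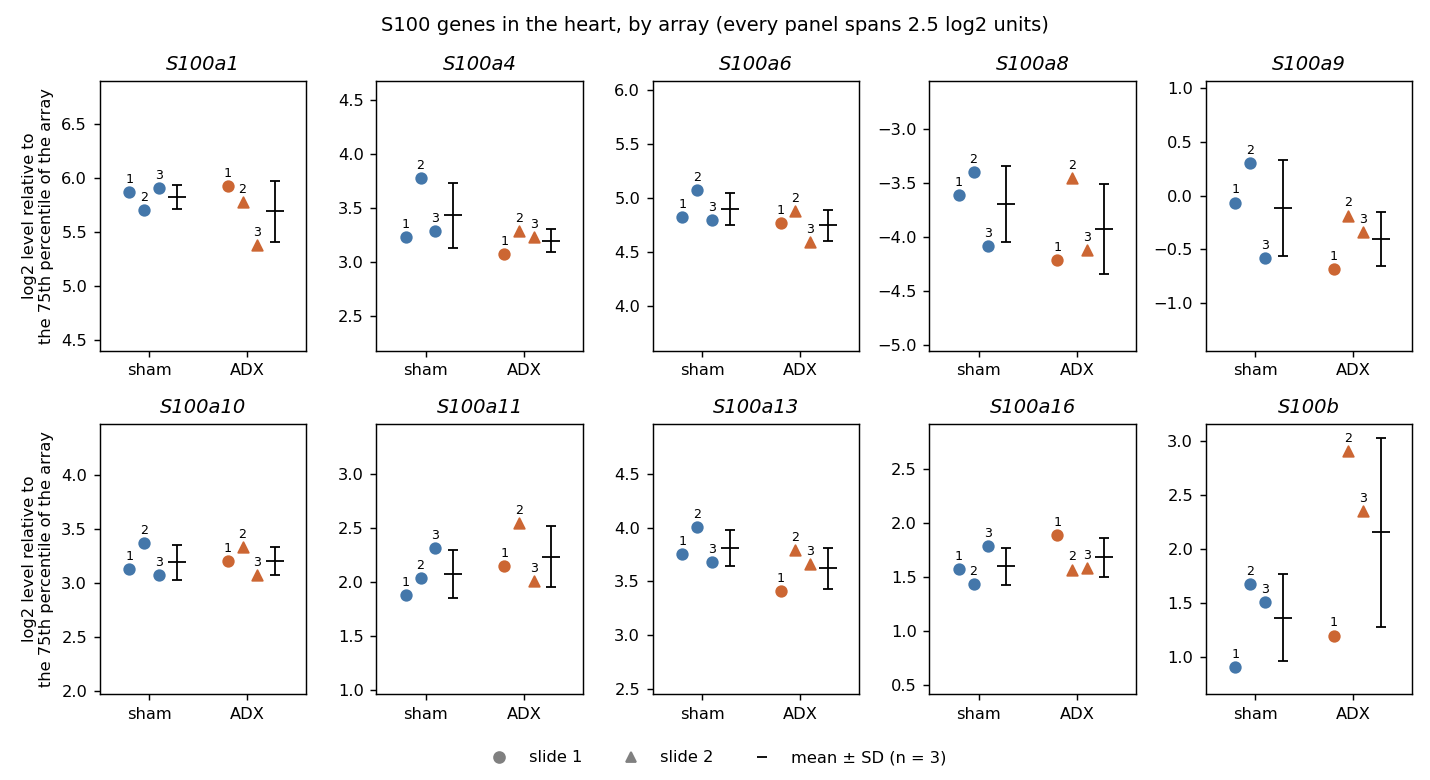
Log2 level of each of the 10 S100 genes over its array's 75th percentile (vertical axis, same span in every panel) in 3 sham and 3 adrenalectomized (ADX) hearts; points are arrays with their replicate number, circles slide 1 and triangles slide 2, and bars the mean ± SD (n = 3). The groups overlap in every panel, and S100b has the widest spread, from 0.90 to 2.91.

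The intervals hold for this processing and for the fit without slide. After normexp, S100a6 (0.18) and S100a8 (-1.13) lay outside their own. No sham heart was on slide 2, so the intervals do not cover a difference between slides. For 9 of the 10 members, the 95% interval of the limma difference lay within a 2-fold change in either direction, and for 5 of them, S100a1, S100a6, S100a10, S100a13 and S100a16, within a 1.5-fold change. S100b was the member whose interval reached past 2-fold. A p that misses the threshold does not show that the groups were alike, and the intervals cover the spread between these 6 arrays alone.

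S100a1, the cardiomyocyte member, had log2 levels of 5.87, 5.70 and 5.91 in sham hearts and 5.92, 5.77 and 5.38 in adrenalectomized hearts. Adrenalectomized replicate 3 was the lowest array and replicate 1 the highest, so the adrenalectomized values enclosed all the sham values. The difference was -0.14 (SE 0.16, limma adjusted p = 0.769), with an interval from 0.699-fold to 1.19-fold, and it was 0.10 within slide 1. Without adrenalectomized replicate 3 the sign turned, to 0.02. Of the list of proteins that S100a1 acts on, 5 of 5 were measured and 0 passed. Ryr2, the cardiac ryanodine receptor, differed by -0.09, Atp2a2, the calcium pump, by -0.10 and Ttn, titin, by -0.00063. Pln, the inhibitor of that pump, differed by 0.21 (SE 0.18, adjusted p = 0.672), and Ryr1, the ryanodine receptor of skeletal muscle, by 0.39 (SE 0.16, adjusted p = 0.391).

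S100a13, which takes part in the release of the growth factor Fgf1 from cells, was at 3.75, 4.0 and 3.68 in sham hearts and 3.42, 3.79 and 3.66 in adrenalectomized hearts. Adrenalectomized replicates 1 and 3 were below every sham array and replicate 2 was among them. The difference was -0.19 (SE 0.14, limma adjusted p = 0.630) and -0.39 within slide 1. It was -0.083 without adrenalectomized replicate 1 and -0.092 without sham replicate 2. S100a16, a widely expressed member, was at 1.57, 1.44 and 1.78 in sham hearts and 1.89, 1.57 and 1.58 in adrenalectomized hearts, a difference of 0.08 (SE 0.14, adjusted p = 0.845) and 0.29 within slide 1. Its highest array was adrenalectomized replicate 1, and without that array the difference was -0.02.

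S100a4, also called fibroblast-specific protein, which binds nonmuscle myosin, was at 3.23, 3.78 and 3.29 in sham hearts and 3.07, 3.29 and 3.23 in adrenalectomized hearts. Sham replicate 2 stood above the other arrays, which all lay between 3.07 and 3.29. The difference was -0.24 (SE 0.17, limma adjusted p = 0.600), with -0.36 within slide 1, and without sham replicate 2 it was -0.06. Myh9, the nonmuscle myosin heavy chain, differed by 0.20 (adjusted p = 0.650). Fibroblast markers, all 9 measured, had 0 members past the threshold and 8 lower values, with a median of -0.24, and their summed log2 level ran from 7.77 to 8.06 in sham and from 7.53 to 7.71 in adrenalectomized hearts. The sum was highest on sham replicate 2, as S100a4 was. The collagen gene Col3a1 differed by -0.34 (SE 0.12, adjusted p = 0.348) and the decorin gene Dcn by -0.32 (SE 0.13, adjusted p = 0.402). In whole heart tissue, fewer cells of a type and less RNA per cell cannot be told apart, and the part of the fibroblast markers in the S100a4 values was not tested.

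S100a6, or calcyclin, was at 4.82, 5.07 and 4.80 in sham hearts and 4.76, 4.88 and 4.59 in adrenalectomized hearts. Again sham replicate 2 was the highest array. The difference was -0.15 (SE 0.13, limma adjusted p = 0.665), with -0.13 within slide 1 and an interval from 0.728-fold to 1.11-fold. It was -0.064 without sham replicate 2 and -0.076 without adrenalectomized replicate 3. Cacybp, the calcyclin-binding protein, was at 3.82, 3.76 and 3.69 in sham hearts and at 4.05, 4.04 and 4.0 in adrenalectomized hearts. Its groups did not overlap, which holds for 18.3% of all genes, and its difference of 0.27 (SE 0.10, adjusted p = 0.357) did not pass. The further partner Sugt1, a cochaperone, differed by 0.12 (adjusted p = 0.718), and Fkbp4, an immunophilin of steroid receptor complexes, by 0.33 (SE 0.15, adjusted p = 0.423). Of the 10 genes in this list of partners, which also held Myh9, Fgf1, Syt1, Capzb, Trp53, Mdm2 and Ppp5c, 0 passed and 9 had higher values, with a median of 0.17.

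S100a10 and S100a11 work with annexins, membrane-binding proteins that they join into tetramers. S100a10 was at 3.13, 3.37 and 3.07 in sham hearts and 3.21, 3.34 and 3.07 in adrenalectomized hearts. These values interleaved, with a difference of 0.02 (SE 0.13, limma adjusted p = 0.975), the smallest of the 10, with 0.02 within slide 1 and an interval from 0.818-fold to 1.25-fold. Anxa2, its annexin partner, differed by 0.07 (SE 0.13, adjusted p = 0.851). S100a11 was at 1.88, 2.04 and 2.32 in sham hearts and 2.15, 2.55 and 2.01 in adrenalectomized hearts. Adrenalectomized replicate 2 was its highest array and sham replicate 1 its lowest, and the difference was 0.16 (SE 0.18, adjusted p = 0.756), with 0.07 within slide 1. Without adrenalectomized replicate 2 it was 0.0023. Anxa1, the partner of S100a11, differed by 0.03 (SE 0.11, adjusted p = 0.942). In all, 6 of 6 genes of the annexin list were measured, 0 passed and 5 had higher values, with a median of 0.05. The scaffold gene Ahnak differed by -0.34 (SE 0.16, adjusted p = 0.434), and Anxa6 by 0.13 (SE 0.19, adjusted p = 0.806).

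S100a8 and S100a9 form the dimer calprotectin. S100a9 was at -0.06, 0.30 and -0.58 in sham hearts and -0.68, -0.19 and -0.34 in adrenalectomized hearts. S100a8 was dim, with a processed signal between 41.4 and 76.8 intensity units, and was not well above background on adrenalectomized replicate 1. Its log2 levels were -3.61, -3.40 and -4.08 in sham hearts and -4.21, -3.45 and -4.12 in adrenalectomized hearts. In both genes the order of the arrays within each group was the same: replicate 2 was the highest in each group, sham replicate 3 was the lowest sham array and adrenalectomized replicate 1 the lowest of all. The differences were -0.23 for S100a8 (SE 0.26, limma adjusted p = 0.746) and -0.29 for S100a9 (SE 0.24, adjusted p = 0.662). With 1 array left out, S100a8 ran from -0.47 to -0.083 and S100a9 from -0.52 to -0.078, nearest to 0 without sham replicate 2 and farthest without adrenalectomized replicate 2 for S100a8 and sham replicate 3 for S100a9. Within slide 1 S100a9 differed by -0.56, and for S100a8 no such value is given because its only adrenalectomized array there was not well above background. After normexp background correction S100a8 differed by -1.13 and passed (adjusted p = 0.0258), in a fit that called 4521 of all genes lower, whereas S100a9 differed by -0.25 and did not pass. The cause of the larger value was not tested.

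Other neutrophil genes were near the limit of detection. Of 13 neutrophil markers, 12 were on the array and 3, Mpo, Cxcr2 and Mmp9, passed the filter on dim probes, while Elane, Csf3r and Retnlg were not well above background on any array. The summed log2 level of the 3 ran from -1.25 to -0.99 in sham and from -1.12 to -1.02 in adrenalectomized hearts, with 0 past the threshold. Cxcr2, the chemokine receptor of neutrophils, differed by 0.17 (SE 0.14, adjusted p = 0.655) and Mmp9, a protease of their granules, by -0.02 (SE 0.11, adjusted p = 0.969). Monocyte and macrophage markers, 10 of 11 measured, summed to between 6.61 and 6.87 in sham and between 6.72 and 6.96 in adrenalectomized hearts, with 0 past the threshold, 4 higher and 6 lower values and a median of -0.07. Itgam, the integrin of monocytes and neutrophils, differed by -0.33 (SE 0.13, adjusted p = 0.378), and the scavenger receptor gene Cd163 by -0.35 (SE 0.19, adjusted p = 0.501). The part of these cells in the S100a8 and S100a9 values was not tested. Of the receptors for extracellular S100 proteins, 3 of 4 were measured and 0 passed, with Tlr4 at 0.09 (SE 0.15, adjusted p = 0.838), Cd36 at -0.12 (SE 0.14, adjusted p = 0.756) and Bsg (basigin) at 0.12. Ager did not pass the filter on dim probes.

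**Figure D2:**
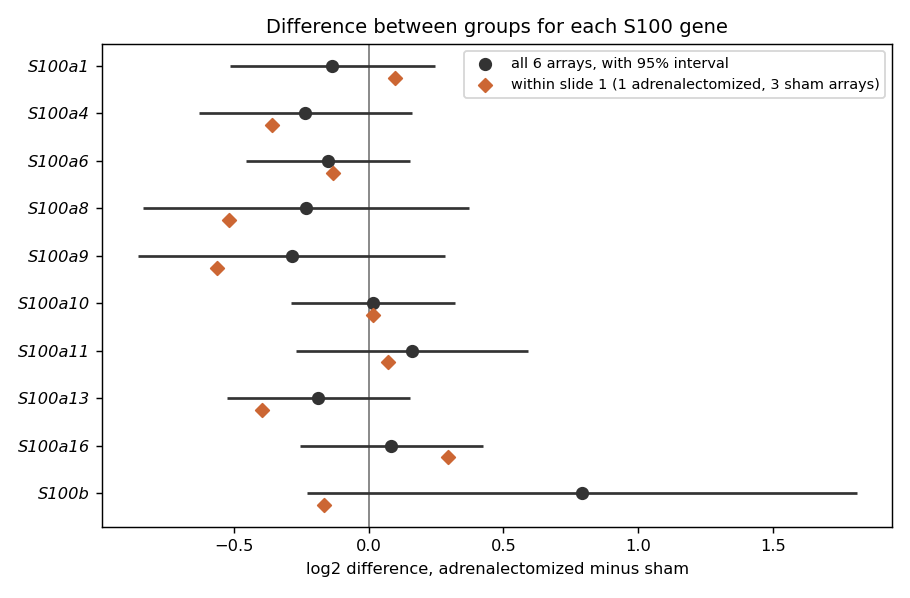
Log2 difference, adrenalectomized minus sham, for each S100 gene (horizontal axis), as the limma estimate over all 6 arrays with its 95% interval (black) and as the difference within slide 1 between 1 adrenalectomized and 3 sham arrays (orange; for S100a8 that adrenalectomized array was not well above background). Every interval spans 0, and S100b lies at 0.79 over all arrays and at -0.17 within slide 1.

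S100b had the widest spread and the largest difference. It was at 0.90, 1.67 and 1.51 in sham hearts and at 1.20, 2.91 and 2.35 in adrenalectomized hearts. Adrenalectomized replicates 2 and 3, the arrays of slide 2, were above every sham array, while replicate 1, on slide 1, lay among the sham values. This arrangement, both slide 2 arrays above every sham array and the slide 1 array not, was found in 4.4% of all genes and in 1 of the 10 members. The difference was 0.79 (SE 0.43, limma adjusted p = 0.502), with an interval from 0.853-fold to 3.51-fold. Within slide 1 it was -0.17 (adjusted p = 0.916 with the slide as a block), and the slide 2 arrays alone were 1.27 above the sham mean. No sham heart was on slide 2, so for those arrays slide and adrenalectomy cannot be told apart.

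Adipocyte and lymphocyte markers were, by their medians, high on the same arrays as S100b. All 7 measured adipocyte markers, of 8 listed, had higher values, with a median of 1.34, and 0 passed. Measured from the sham mean, the median of the list stood at -1.17, 0.95 and 0.18 in sham hearts and at 0.19, 2.03 and 1.76 in adrenalectomized hearts. Sham replicate 1 was the lowest array and adrenalectomized replicate 2 the highest both for this median and for S100b. Plin1, which coats the lipid droplets of adipocytes, was at 0.33, 2.36 and 1.81 in sham hearts and 1.99, 4.13 and 3.74 in adrenalectomized hearts, a difference of 1.79 (SE 0.68, adjusted p = 0.375) and 0.49 within slide 1. Lipe, hormone-sensitive lipase, differed by 0.62 (SE 0.26, adjusted p = 0.401) and by 0.04 within slide 1. The summed log2 level of the 7 ran from 8.04 to 8.62 in sham and from 8.37 to 8.97 in adrenalectomized hearts. Fabp4 made up most of it, at 8.17 on sham replicate 1, where the sum was 8.21.

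Of 5 brown adipocyte markers, 4 were well above background in sham hearts, 3 of them, Ucp1, Cidea and Dio2, had higher values and 0 passed. Their median difference was 0.63, or -0.087 within slide 1, and their summed log2 level ran from 8.41 to 8.60 in sham and from 8.39 to 9.07 in adrenalectomized hearts. Cox8b, a subunit of cytochrome oxidase, made up most of that sum, at 8.06 on sham replicate 3, where the sum was 8.41. The sum was therefore not read as a level of brown fat. Cox8b differed by -0.18 (limma adjusted p = 0.575), with -0.21 within slide 1, and was highest on sham replicates 1 and 2. Ucp1, the uncoupling protein of brown fat, was at 1.11, 3.21 and 3.82 in sham hearts and 4.20, 6.42 and 6.16 in adrenalectomized hearts, a difference of 2.88 (SE 0.82, adjusted p = 0.274) and 1.48 within slide 1, where adrenalectomized replicate 1 was above every sham array for Ucp1 and not for S100b. Elovl3, a fatty acid elongase of brown fat, had 0 sham arrays well above background, with a sham mean of -5.83. It was at -3.16, 0.83 and 0.65 in adrenalectomized hearts, a mean of -0.56, with the higher values on slide 2. By the group means it was at least 14.4-fold higher in adrenalectomized hearts. The slide 2 arrays carry this bound, and it does not hold for adrenalectomized replicate 1 alone. No difference within slide 1 is given, because no sham array was well above background. That bound took for each sham array the lowest signal well above background or the probe's own, whichever was higher. Elovl3 did not pass the threshold. It passed the filter only through the adrenalectomized arrays and is left out of these counts. The part of fat tissue in the S100b values was not tested.

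Schwann cells are a further source of S100b. All 9 of their markers were measured, 0 passed and 6 had lower values, with a median of -0.02, and of -0.27 within slide 1. Their median stood 0.06 and 0.01 above the sham mean on the slide 2 arrays, where S100b stood 1.54 and 0.99 above it, and their summed log2 level ran from 3.94 to 4.19 in sham and from 4.07 to 4.16 in adrenalectomized hearts. Foxd3, a transcription factor of neural crest cells, differed by -0.46 (SE 0.19, limma adjusted p = 0.406). It was well above background on 2 of the 3 adrenalectomized arrays. Melanocytes also make S100b, and of 5 markers 3 were measured and 0 passed, with a median of -0.20, and of -0.07 within slide 1. Dct, an enzyme of melanin synthesis, differed by 1.54 (SE 0.27, limma adjusted p = 0.156) and by 1.28 within slide 1. Mlana differed by -0.44 (SE 0.33, adjusted p = 0.622) and by -0.69 within slide 1. Tyr and Tyrp1 were not well above background on any array. The part of Schwann cells, melanocytes and lymphocytes in the S100b values was not tested.

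**Figure D3:**
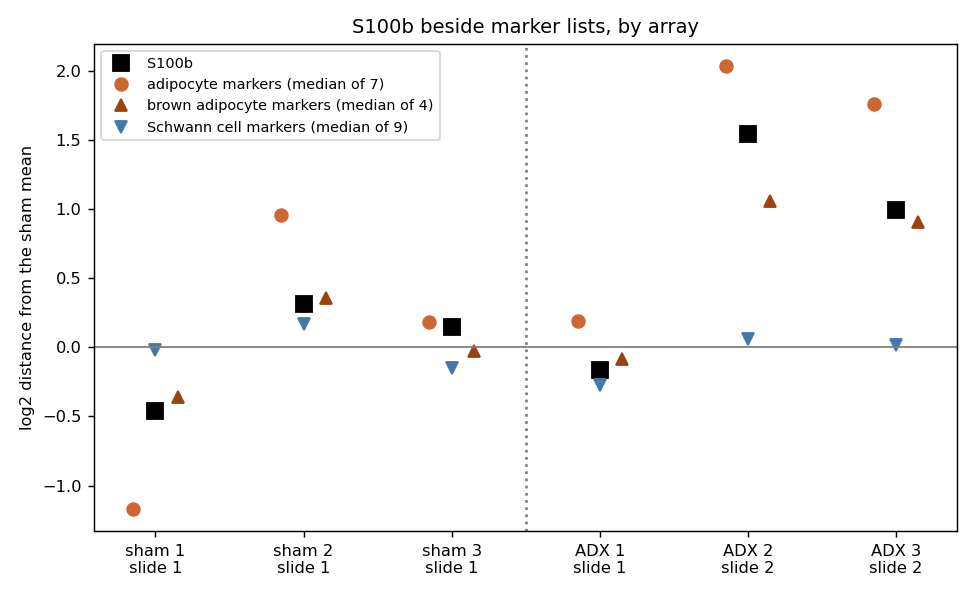
Log2 distance from the sham mean (vertical axis) on each of the 6 arrays (horizontal axis, with slide) for S100b and for the median of 7 adipocyte, 4 brown adipocyte and 9 Schwann cell markers. S100b, at 1.54 and 0.99 on the slide 2 arrays, is high on the arrays where the medians of the fat markers are high, and the Schwann cell median stays between -0.27 and 0.17.

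Genes whose profile over the 6 arrays was most like that of S100b were found by the root mean square distance between profiles centred on their own means, among 13184 genes with a symbol. The nearest were Phlda3 (distance 0.12 on the log2 scale), Sugct (0.13) and Ltbp2 (0.14), set against a root mean square of 0.68 for S100b about its own mean. Phlda3, which encodes a pleckstrin homology domain protein, was at 3.24, 3.75 and 3.70 in sham hearts and 3.53, 5.00 and 4.40 in adrenalectomized hearts. For S100a8 the nearest were Net1 (0.10), P2rx2 (0.10) and Chd5 (0.11), against a root mean square of 0.34 for S100a8. Nearness over 6 arrays is a description of these arrays.

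Among the replicates, 1 number stood out. In 7 of the 10, S100a4, S100a6, S100a8, S100a9, S100a10, S100a13 and S100b, replicate 2 was the highest array in both groups, an arrangement noticed in the data that held for 11.4% of all genes. The exceptions were S100a1, S100a11 and S100a16. Summed levels of 5 marker lists had the same arrangement, those of monocytes and macrophages, Schwann cells, adipocytes, brown adipocytes and lymphocytes. Those of neutrophils, fibroblasts, cardiomyocytes, endothelial cells, erythroid cells and melanocytes did not. For Schwann cells the sums on adrenalectomized replicates 2 and 3 were almost equal, at 4.1641 and 4.1639. For monocytes and macrophages so were those on sham replicates 2 and 1, at 6.87 and 6.86. Endothelial markers (7 measured) had 2 higher and 5 lower values and a median of -0.20. Vwf differed by -0.64 (SE 0.16, limma adjusted p = 0.253) and Tek by -0.26 (SE 0.12, adjusted p = 0.449). Lymphocyte markers (6 measured) had 5 higher values and 1 lower, and a median of 0.39. Measured from the sham mean, their median stood at 0.02, 0.11 and -0.10 in sham hearts. It stood at 0.06, 0.82 and 0.36 in adrenalectomized hearts, high on slide 2. Among these markers were Cd3g at 0.33 (SE 0.12, limma adjusted p = 0.366) and Cd79b at 0.78 (SE 0.38, adjusted p = 0.460). Erythroid markers (3 measured) had 3 higher values and a median of 0.77. Slc4a1 differed by 0.92 (SE 0.53, adjusted p = 0.528) and Alas2 by 0.77 (SE 0.52, adjusted p = 0.584). On the adrenalectomized arrays the erythroid median stood 1.44, 1.39 and -0.53 from the sham mean, so replicate 3 was low. Cardiomyocyte markers had 3 higher and 7 lower values and a median of -0.13. The natriuretic peptide gene Nppa differed by -0.70 (SE 0.18, adjusted p = 0.242) and Tnni3, cardiac troponin I, by -0.29 (SE 0.12, adjusted p = 0.389). In none of these 4 lists did a gene pass.

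The rest of the family was at or near background. Of 6 further S100 genes listed, 5 were on the array and 1, S100a3, passed the filter on dim probes, with levels of -3.05, -3.13 and -3.21 in sham hearts and -2.85, -3.04 and -3.35 in adrenalectomized hearts and a difference of 0.05 (SE 0.15, limma adjusted p = 0.922). S100a5 was not well above background on any array, and S100g, the intestinal calcium-binding protein calbindin D9k, was so on 1 array, adrenalectomized replicate 2. S100a14, an epithelial member, was not well above background on the 3 sham arrays or adrenalectomized replicate 1, where its log2 levels lay between -6.04 and -5.26, and was well above it on adrenalectomized replicates 2 and 3, at -2.78 and -3.84. S100a7a, another epithelial member, was well above background on adrenalectomized replicate 3, at -4.31, and on no other array. These 4 genes were left out of the test by the filter, and the arrays on which S100a14, S100a7a and S100g were detected are those of slide 2.

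**Figure D4:**
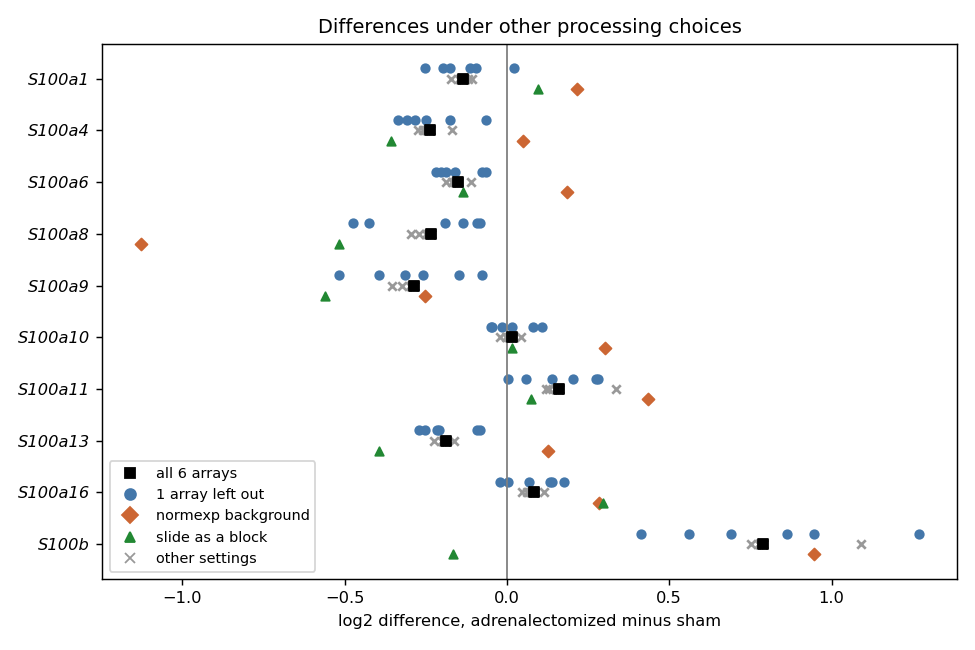
Log2 difference, adrenalectomized minus sham, for each S100 gene (horizontal axis) over all 6 arrays (square), with 1 array left out (circles), after normexp background correction (diamonds), with the slide as a block (triangles) and under the other settings (crosses). S100b runs from -0.17 with the slide as a block to 1.27 without adrenalectomized replicate 1, and S100a8 reaches -1.13 after normexp.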

How the data were processed

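Heart RNA of 3 sham-operated and 3 adrenalectomized mice, biological replicates per the design text, was amplified from total RNA, labelled with Cy3 and hybridised to Agilent 1-colour arrays, per the labels' protocols. Scans were read with Agilent Feature Extraction (version 9.5, from the submitters' processing notes). Each deposited intensity is linear, with spatial and multiplicative detrending on and background correction off, per the file headers, and arrays were not normalized to each other. Low values carry a surrogate (15.3% to 22.0% of spots). The deposited value table equals the scanner intensity for all 45018 spots of each array, so it is linear and not centred, with column medians from 68.1 to 92.2.

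Log2 intensity minus the 75th percentile of each array was used, without control spots or outliers (80 to 133 on an array), and spots of a probe were averaged. No member's spot was an outlier or saturated. Probes were named through RefSeq accessions (22951 of 41174) or kept the scanner name. A probe was tested if well above background on all 3 arrays of a group, and its gene was represented by the probe of highest mean. Differences were fitted with limma 3.58.1 in R 4.3.3 (lmFit, eBayes, Benjamini-Hochberg over all genes, threshold 0.05), tested on simulated data. Python 3.11.15 read files and drew figures. Members and lists were chosen with earlier results of these data known. All members were named, with the 2 genes of smallest p from each list without a call, and the 3 nearest profiles to S100a8 and S100b; 1 gene that this rule names is not reported here. Other partners and marker genes given were chosen after their values were seen. Samples were treated as unpaired, and deviations from the group means correlated weakly between samples of the same replicate number (0.16, 0.16 and -0.16). This does not settle whether they were paired. Alternatives changed the background correction, scaling, filter, probe rule, slide, pairing, variance model and arrays.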

Additional observations from a re-analysis of the deposited data

How the results depend on the processing

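Under 7 of the alternatives a member's estimate is fixed by construction (69 refits). Of the other 130 refits of a member, 114 kept the sign and the side of the threshold, 15 turned the sign and 1 gave a call. Among these, the slide as a block and slide 1 alone give the same estimates by construction, and both are counted. The 1 call was S100a8 after normexp background correction (-1.13, adjusted p = 0.0258). That correction also called S100a3, turned from 0.05 to -0.85, so the count of S100 genes past the threshold went from 0 to 2, and it turned S100a1 to 0.22, S100a4 to 0.049, S100a6 to 0.18 and S100a13 to 0.13. S100a10 turned to -0.0014 under quantile normalization and -0.023 under median centring. With the slide as a block, and on slide 1 alone, S100a1 turned to 0.10 and S100b to -0.17. With 1 array left out, S100a1 ran from -0.25 to 0.022, S100a10 from -0.050 to 0.11, S100a16 from -0.022 to 0.18, S100a3 from -0.067 to 0.18 and S100b from 0.41 to 1.27, with no call. The cause of these changes was not tested.

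Over all genes, 7 passed. The count was 5574 after normexp, 2 both with a percentile over detected probes and with a gene's probes averaged, 13 with a variance trend and robust estimation, 81 with array weights and 43 on slide 1 alone. It was 1 with probes above background on all arrays, without a filter, with every probe tested, and with the slide as a block. With 1 array left out it ran from 1 to 42. The replicate block gave 1 gene, changed no member's call and left each member's difference as it was. Beside the count of 0 S100 genes, 0 members had an unadjusted p under 0.05 in limma. S100a8 was too dim for the filter that asks for all 6 arrays, and no value was computed there.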
